A study of Mus musculus with 32 samples.

Results

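The cell cycle and DNA replication genes described here are a set of 49 listed mouse genes that act in S phase and mitosis, of which 48 were measured, out of 22180 named genes on the array. A member was taken from array features that name exactly 1 gene symbol, with the feature of the highest mean signal where there were several, which applied to Rrm2. Ccnb1 was listed and was not analysed here. The members were set by name and not by their values, although the list was drawn up with earlier results of these data known. Gene expression was measured in kidneys of 32 male mice of strain 129 by Affymetrix Mouse Gene 2.0 ST arrays, 1 array per mouse. The groups were Col4a3-/- (KO) mice at 7 weeks, KO mice at 4 weeks, Col4a3+/+ littermate (WT) mice at 7 weeks and WT mice at 4 weeks, with 8 mice in each. Col4a3 encodes a chain of the type IV collagen of the glomerular basement membrane, and its loss is a mouse model of Alport syndrome, an inherited progressive kidney disease. No treatment is named for any group, and the sources used here do not say which part of the gene the mutation removes. The comparison addressed is how the decline of these genes during postnatal growth in WT kidney compares with their course in KO kidney from 4 to 7 weeks.

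As background, a cell that enters the cycle first loads the Mcm helicase onto DNA, a step called licensing, and then fires the helicases and copies its genome with the clamp Pcna and freshly made nucleotides. Cdk1 with cyclins A and B then drives it into mitosis, where spindle motors and kinetochores align the chromosomes, a checkpoint holds anaphase until they are attached, and a ubiquitin ligase destroys cyclin and securin. Transcripts of many of these genes are made mainly in cycling cells, through E2F factors for S phase and through the MuvB complex with B-Myb and Foxm1 for mitosis. In the kidney the tubules still grow after birth and most adult tubule cells are quiescent, while tubule injury, infiltrating leukocytes and fibroblasts can all bring cells into cycle. In whole-kidney RNA, fewer cells of a type and less RNA per cell cannot be told apart.

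Promoter sequences from RefSeq (GRCm38.p6), 250 bases before to 50 bases after the transcription start, were matched for 40 of the 48 measured members. Aurkb, Ccna2, Dlgap5, Esco2, Foxm1, Kif20a, Mcm4 and Tpx2 were not matched. The matched promoters were searched on both strands for the cell cycle genes homology region (CHR, TTTGAA, or TTCAAA on the other strand), for the CCAAT box (CCAAT, or ATTGG) and for the E2F sites TTTCCCGC, TTTCGCGC, TTTGCCGC and TTTGGCGC. In the mitosis classes 20 of 26 members held the CHR letters, 19 held CCAAT and 1, Cdk1, held an E2F site. Among the licensing and helicase members 2 of 8 held the CHR letters, 7 held CCAAT and 5 held an E2F site. The 6 other members held them in 1, 4 and 0 cases. Among all 32851 RefSeq promoters the CHR letters were held by 17.9%, CCAAT by 37.4% and an E2F site by 2.26%, and over 27025 genes by 20.2%, 41.1% and 2.61%. A match describes the letters and is no evidence of binding. The 170 bases before the start are shown for members whose courses the text turns on, with every match in capitals. Cdk1, Top2a, Kif11 and Ube2c are examples of mitotic genes and Mcm6 and Cdc6 of licensing genes, and they do not represent every member. Each of the mitotic examples holds CHR and CCAAT letters, which not all of that class do. Of the licensing and helicase members not shown, Mcm2, Mcm10 and Cdc45 held no E2F site, and Mcm2 and Cdc45 held the CHR letters. Cdc6 was the licensing and helicase member without CCAAT. The run of capitals near the middle of Mcm6 joins overlapping E2F matches of both strands.
Cdk1, chr10:69352913-69353082, minus strand: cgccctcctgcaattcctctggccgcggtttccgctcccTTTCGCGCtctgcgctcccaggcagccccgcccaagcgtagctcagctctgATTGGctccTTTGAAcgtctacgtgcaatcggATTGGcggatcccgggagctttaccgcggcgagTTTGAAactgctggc
Top2a, chr11:99024190-99024359, minus strand: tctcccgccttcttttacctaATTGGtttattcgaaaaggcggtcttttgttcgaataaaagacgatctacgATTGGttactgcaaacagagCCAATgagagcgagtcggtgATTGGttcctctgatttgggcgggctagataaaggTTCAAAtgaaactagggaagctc
Kif11, chr19:37376212-37376381, plus strand: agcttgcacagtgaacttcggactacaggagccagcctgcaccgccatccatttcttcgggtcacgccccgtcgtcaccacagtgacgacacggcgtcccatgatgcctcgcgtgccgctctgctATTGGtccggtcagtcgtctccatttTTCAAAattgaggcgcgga
Ube2c, chr2:164769759-164769928, plus strand: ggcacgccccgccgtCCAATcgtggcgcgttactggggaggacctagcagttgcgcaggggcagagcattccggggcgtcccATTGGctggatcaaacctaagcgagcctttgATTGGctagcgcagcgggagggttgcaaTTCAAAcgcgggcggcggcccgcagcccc
Mcm6, chr1:128359706-128359875, minus strand: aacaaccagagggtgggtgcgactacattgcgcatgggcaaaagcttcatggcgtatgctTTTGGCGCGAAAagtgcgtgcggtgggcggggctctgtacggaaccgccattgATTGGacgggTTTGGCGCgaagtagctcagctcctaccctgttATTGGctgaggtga
Cdc6, chr11:98907981-98908150, plus strand: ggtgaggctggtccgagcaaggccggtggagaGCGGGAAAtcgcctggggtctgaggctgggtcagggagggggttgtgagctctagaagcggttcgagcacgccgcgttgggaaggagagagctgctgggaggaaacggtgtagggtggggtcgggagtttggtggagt

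In these windows Cdk1 carries CHR and CCAAT letters close to the start with an E2F site further up, and Top2a, Kif11 and Ube2c carry CHR and CCAAT letters alone. Mcm6 carries E2F sites and CCAAT with no CHR letters, and Cdc6 carries 1 E2F site.

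Arrays of a group correlated at 0.965 to 0.995 over all genes, and no 2 arrays held identical values. Col4a3 signal ran from 6.97 to 7.87 in KO kidneys at 7 weeks, against 8.74 to 9.06 in WT kidneys of that age. At 4 weeks it ran from 7.60 to 8.42 in KO kidneys, against 8.46 to 9.33 in WT kidneys, so the genotypes did not overlap at either age. Values are log2 signals, and a difference of 1 is a change by a factor of 2. Differences are limma estimates ± standard error (8 mice in each group), and a gene passed at an adjusted p below 0.05 over the 22180 genes. The number of arrays limits the precision of all estimates. Signals of different genes depend on their probes and are not set against each other.

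From 4 to 7 weeks most members of the cell cycle set fell in WT kidneys, while in KO kidneys most did not pass and a smaller part rose. In KO kidneys 16 of 48 members rose, 1 fell and 31 did not pass, beside 21.4% of all genes higher and 21.3% lower in that comparison. In WT kidneys 31 of 48 members fell, 0 rose and 17 did not pass, beside 14.1% of all genes lower and 15.4% higher. The median member difference between ages was 0.22 in KO and -0.48 in WT kidneys, beside medians over all genes of -0.06 and -0.01. The test of the difference itself, the KO course minus the WT course, passed for 32 members, each with the KO course above the WT course, and for 0 in the other direction. Of all genes 9.80% passed upward and 7.24% downward in that test. The KO course exceeded the WT course in 47 of 48 members, with Mcm10 as the exception at -0.07 ± 0.12 (95% confidence limits -0.32 to 0.18). Centring each array on its median moved the share of passing genes that were higher to 35.1% from 50.1% for the KO course and to 33.2% from 57.5% for the difference in courses.

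**Figure D1:**
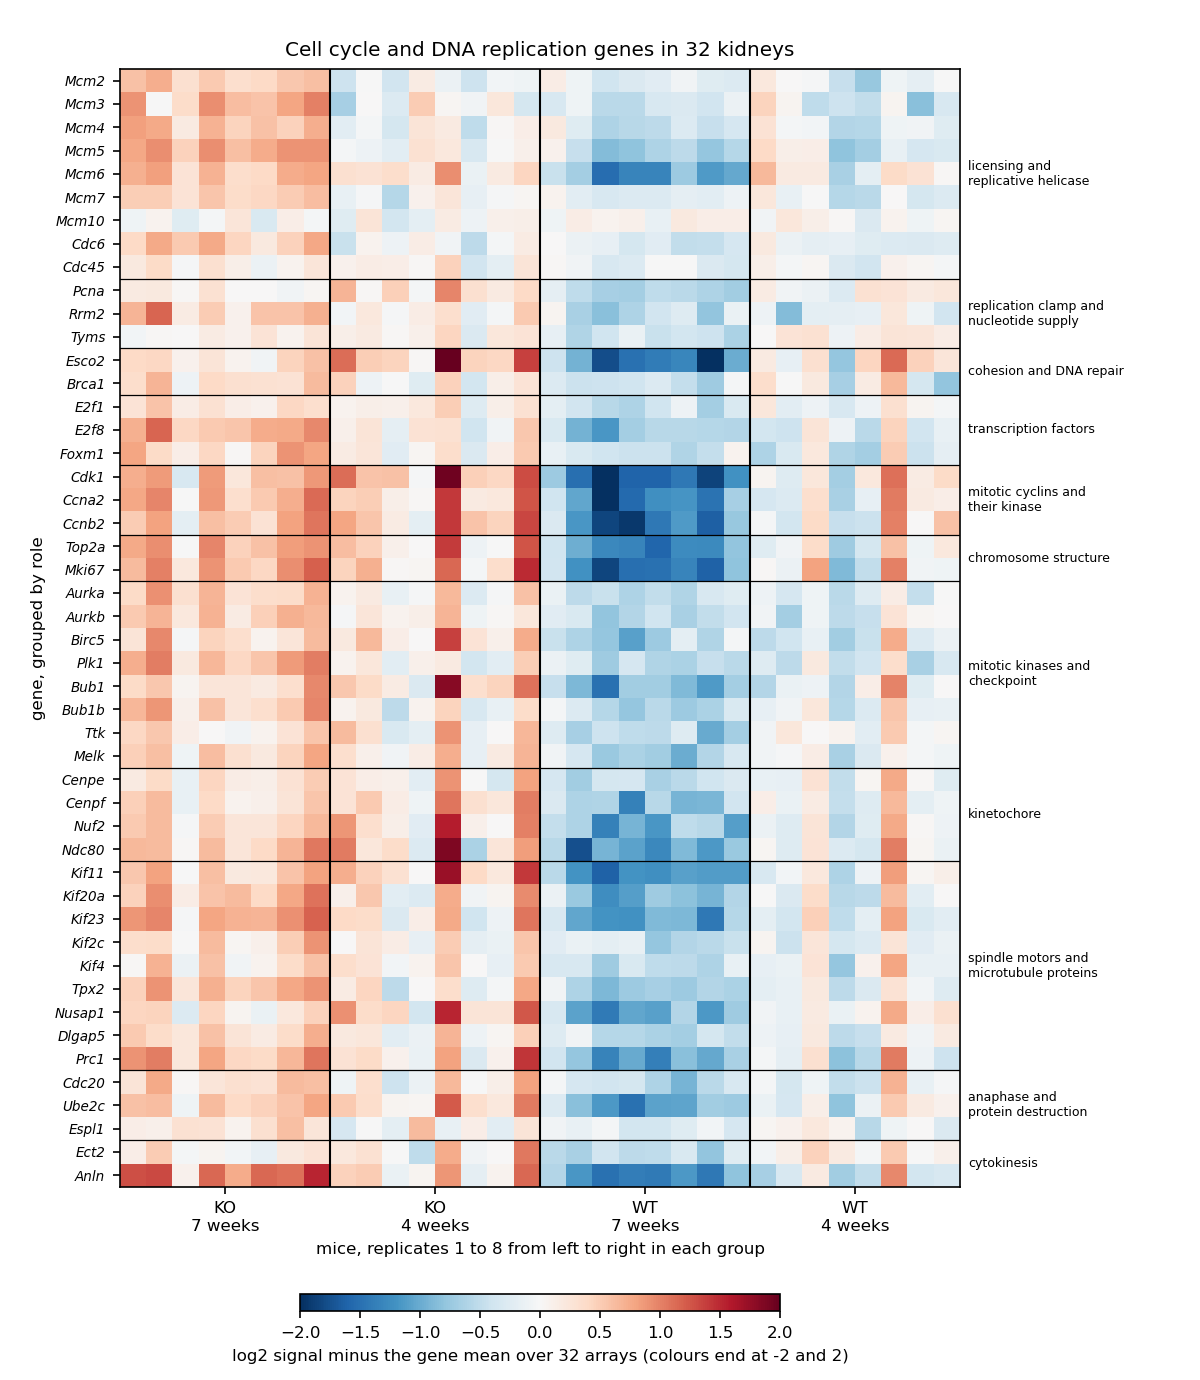
Log2 signal of each of the 48 measured members (rows, grouped by role) in each of the 32 mice (columns), minus the mean of that gene over all arrays. The WT kidneys at 7 weeks form the block of low values, and most licensing and helicase rows at the top are highest in the KO kidneys at 7 weeks.

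By the threshold the members fell into 5 kinds, and differences between members of different kinds were not tested. Of the 31 members that fell in WT kidneys, 6 rose in KO kidneys (Anln, Bub1b, E2f8, Kif23, Mcm5 and Tpx2), 24 did not pass in KO kidneys and 1, Pcna, fell in both. With arrays centred on their medians, Mcm5 missed the threshold in WT kidneys and Kif23 in KO kidneys. Of the 17 that did not pass in WT kidneys, 10 rose in KO kidneys (Aurka, Aurkb, Cdc6, Foxm1, Mcm2, Mcm3, Mcm4, Mcm7, Plk1 and Rrm2). The last 7, Birc5, Brca1, Cdc20, Cdc45, Espl1, Kif2c and Mcm10, passed in neither. Across the 48 members the 2 courses correlated at r = 0.525, a description over genes that share arrays, with no mouse shared between the courses. Members with a large fall in WT kidneys tended to be those with the lowest course in KO kidneys.

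**Figure D2:**
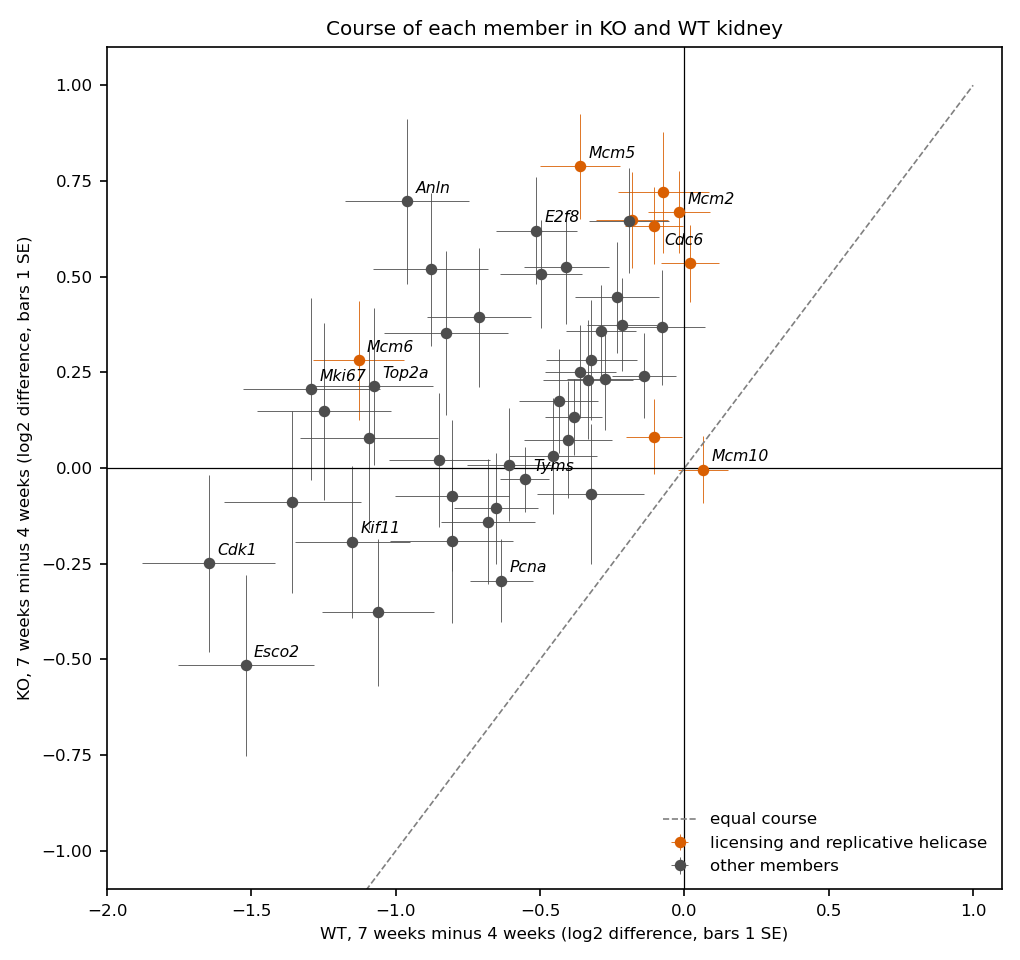
Course of each member, 7 weeks minus 4 weeks, in KO kidneys (vertical axis) against WT kidneys (horizontal axis), as log2 differences with bars of 1 standard error; the dashed line marks equal courses. Of the 48 points 47 lie above that line, and the orange licensing and helicase members other than Mcm6 sit at -0.36 to 0.06 on the horizontal axis.

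Markers of several other cell types moved in KO kidneys, and those of others did not or moved in part. Of all genes 21.4% rose and 21.3% fell in the KO course, and 15.4% rose and 14.1% fell in the WT course. In the difference in courses 9.80% passed upward and 7.24% downward. Macrophage and myeloid markers rose in 15 of 15 cases in KO kidneys between the ages and passed in 15 of 15 in the difference in courses, injured tubule markers in 9 of 9 and 9 of 9, fibroblast markers in 9 of 9 and 9 of 9, and T cell markers in 7 of 8 and 6 of 8. The mean level of the 15 macrophage markers ran from 8.33 to 9.70 in KO kidneys at 7 weeks and from 6.75 to 7.66 at 4 weeks, and in WT kidneys from 6.59 to 6.82 and from 6.51 to 7.60. The 9 injured tubule markers ran from 9.0 to 10.14 and from 7.22 to 8.41 in KO kidneys at 7 and 4 weeks, and from 7.03 to 7.31 and from 6.93 to 7.80 in WT kidneys. In WT kidneys 8 of 10 proximal tubule markers rose and 1 fell with age, 4 of 4 podocyte markers rose, 2 of 9 fibroblast markers rose and 3 fell, 2 of 9 injured tubule markers rose and 1 of 15 macrophage markers rose. The rises of fibroblast and injured tubule markers are near the share of all genes, 15.4%, and that of macrophage markers is below it. The 10 proximal tubule markers ran from 11.13 to 12.11 and from 11.24 to 12.19 in KO kidneys at 7 and 4 weeks, and from 12.17 to 12.26 and from 11.45 to 12 in WT kidneys. Among the other lists in the KO course, B cell markers were higher in 2 of 8, endothelial markers higher in 1 and lower in 3 of 8, loop of Henle and distal nephron markers higher in 1 and lower in 4 of 9, erythroid markers higher in 1 and lower in 1 of 3, podocyte markers higher in 2 of 4, and proximal tubule markers higher in 2 and lower in 2 of 10. The B cell count and both proximal tubule counts are near the shares of all genes, 21.4% and 21.3%. In the difference in courses 0 of 8 B cell and 0 of 4 podocyte markers passed, while 2 of 8 endothelial, 3 of 9 distal nephron and 4 of 10 proximal tubule markers passed downward and erythroid markers 1 upward and 1 downward of 3. In WT kidneys, where 31 members fell, distal nephron markers fell in 3 and rose in 1 of 9, and fibroblast markers fell in 3 of 9. Endothelial markers fell in 1 and rose in 2 of 8, and B cell markers fell in 0 and rose in 2 of 8. Falls numbered 0 of 15 for macrophage, 0 of 9 for injured tubule and 0 of 8 for T cell markers, beside 14.1% of all genes lower. Log2 array signals have no true zero, so no marker stood at 0. The part of these cells in the course of the members was not tested.

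Most licensing and helicase genes rose in KO kidneys, and 2 of 9 fell in WT kidneys, near the share of all genes lower, 14.1%. The counts of this and the following role classes are to be read against the shares of all genes. For the KO course these were 21.4% higher and 21.3% lower, and for the WT course 15.4% higher and 14.1% lower. For the difference in courses they were 9.80% upward and 7.24% downward. In KO kidneys 6 of 9 rose with age, Mcm5 by 0.79 ± 0.14, Mcm3 by 0.72 ± 0.16, Mcm2 by 0.67 ± 0.11, Mcm4 by 0.65 ± 0.12, Cdc6 by 0.63 ± 0.10 and Mcm7 by 0.53 ± 0.10. In WT kidneys 2 of 9 fell, Mcm6 and Mcm5 (-0.36 ± 0.14, adjusted p = 0.0448), and the other 7 lay between -0.18 for Mcm4 and 0.06 for Mcm10 without passing. The fall of Mcm5 in WT kidneys did not pass when any 1 of 10 mice was left out, with adjusted p up to 0.121. The courses differed in 7 of 9, all but Cdc45 (0.19 ± 0.14) and Mcm10.

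Mcm6 codes for a subunit of the hexameric helicase. Its signal ran in KO kidneys from 7.20 to 7.75 with a median of 7.64 at 7 weeks and from 6.8 to 7.86 with a median of 7.24 at 4 weeks. Mcm6 ran in WT kidneys from 5.41 to 6.49 with a median of 5.85 at 7 weeks and from 6.29 to 7.58 with a median of 7.11 at 4 weeks. The 7-week WT kidneys were low, with 7 of 8 below every 4-week WT kidney and all 8 below every 7-week KO kidney, while the KO ages overlapped. Mcm6 did not pass in KO kidneys (0.28 ± 0.16, adjusted p = 0.149), fell in WT kidneys (-1.13 ± 0.16, 2.19-fold lower, adjusted p = 2.41e-06) and differed between the courses (1.41 ± 0.22, adjusted p = 3.02e-05). Cdc6 loads the helicase onto origins. Its signal ran in KO kidneys from 5.44 to 6.01 with a median of 5.73 at 7 weeks and from 4.72 to 5.41 with a median of 5.19 at 4 weeks. Cdc6 ran in WT kidneys from 4.75 to 5.25 with a median of 4.95 at 7 weeks and from 4.96 to 5.43 with a median of 5.03 at 4 weeks. The 8 KO kidneys at 7 weeks stood above every other kidney, and the other 3 groups overlapped. Cdc6 rose in KO kidneys (0.63 ± 0.10, 1.55-fold, adjusted p = 4.75e-06), did not pass in WT kidneys (-0.11 ± 0.10, adjusted p = 0.488) and differed between the courses (0.74 ± 0.14, adjusted p = 0.000365). Mcm2, Mcm5 and Mcm7 shared this layout, with all 8 KO kidneys at 7 weeks above every KO kidney at 4 weeks and every WT kidney.

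**Figure D3:**
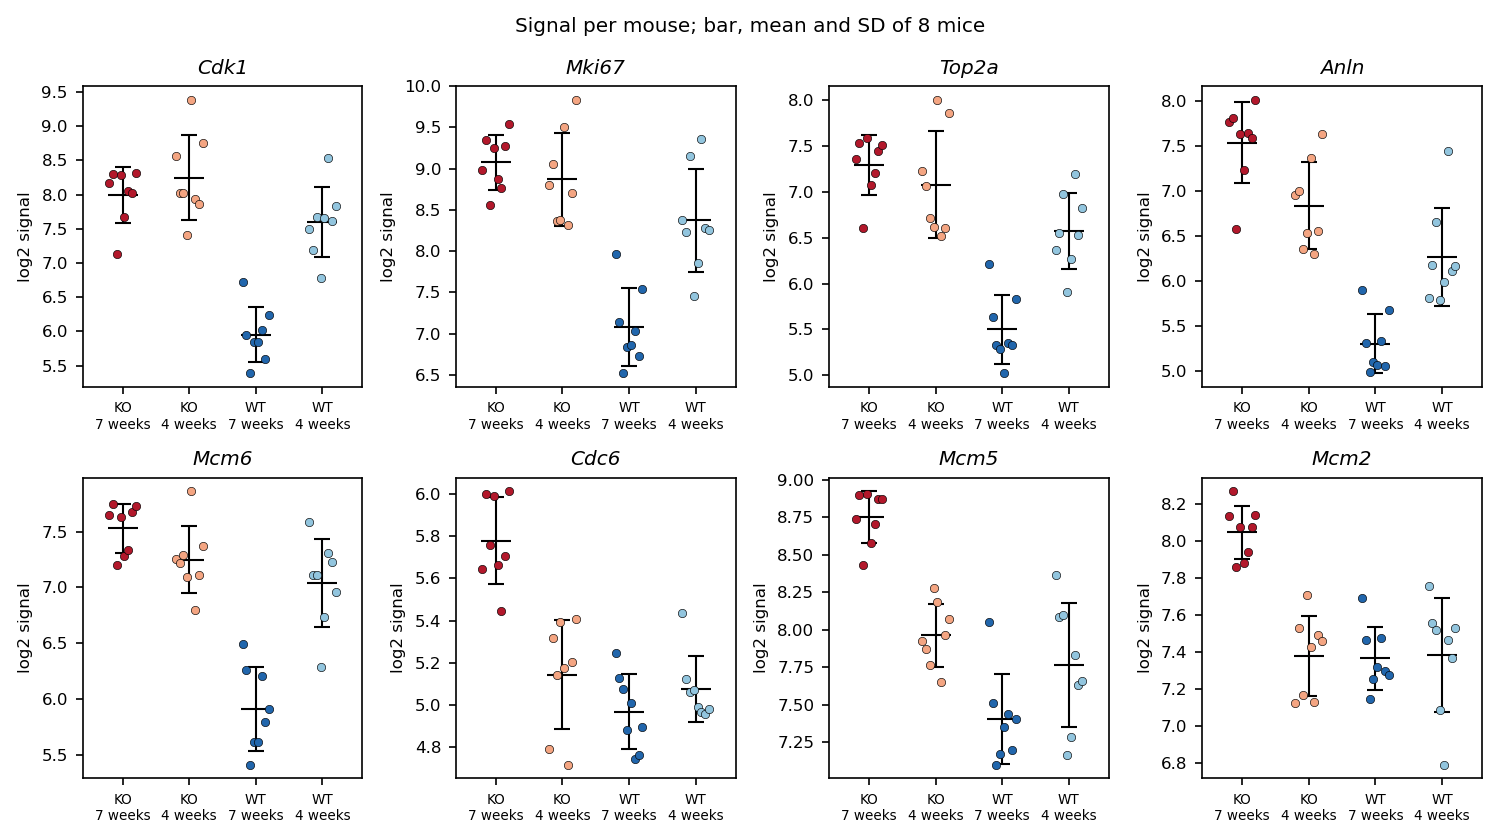
Log2 signal per mouse for 8 members, with the mean and SD of 8 mice drawn as bars; each panel has its own vertical scale. For Cdk1, Mki67, Top2a, Anln and Mcm6 the WT kidneys at 7 weeks are the low group, and for Cdc6, Mcm5 and Mcm2 the KO kidneys at 7 weeks are the high group.

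Of the 3 clamp and nucleotide supply genes 1 rose and 1 fell in KO kidneys, beside 21.4% of all genes higher and 21.3% lower. In WT kidneys 2 of them fell, beside 14.1% of all genes. Differences between the genes were not tested. Pcna, the sliding clamp of the polymerases, fell in both genotypes, with differences of -0.29 ± 0.11 in KO kidneys (adjusted p = 0.0295) and -0.64 ± 0.11 in WT kidneys (adjusted p = 4.33e-05), and the difference in courses did not pass (0.34 ± 0.15, adjusted p = 0.136). The KO fall did not pass when any 1 of 3 mice was left out, with adjusted p up to 0.0940. Tyms, which makes thymidylate, ran in KO kidneys from 7.87 to 8.19 with a median of 8.00 at 7 weeks and from 7.63 to 8.35 with a median of 8.07 at 4 weeks. Tyms ran in WT kidneys from 7.28 to 7.79 with a median of 7.52 at 7 weeks and from 7.81 to 8.22 with a median of 8.12 at 4 weeks. The 8 WT kidneys at 7 weeks lay below every WT kidney at 4 weeks and every KO kidney at 7 weeks. Tyms did not pass in KO kidneys (-0.03 ± 0.09), fell in WT kidneys (-0.55 ± 0.09, adjusted p = 9.35e-06) and differed between the courses (0.53 ± 0.12, adjusted p = 0.0022). Rrm2, the small subunit of ribonucleotide reductase, ran in KO kidneys from 6.38 to 7.47 with a median of 6.87 at 7 weeks and from 6.07 to 6.83 with a median of 6.36 at 4 weeks. Rrm2 ran in WT kidneys from 5.47 to 6.35 with a median of 5.8 at 7 weeks and from 5.44 to 6.53 with a median of 6.13 at 4 weeks. Of the KO kidneys at 7 weeks 5 lay above every KO kidney at 4 weeks, and the WT ages overlapped. It rose in KO kidneys (0.45 ± 0.15, adjusted p = 0.0128), did not pass in WT kidneys (-0.23 ± 0.15) and differed between the courses (0.68 ± 0.21, adjusted p = 0.0192). With the mean of its 2 features in place of the brighter one, Rrm2 passed neither in KO kidneys (0.08, adjusted p = 0.528) nor in the difference (0.26, adjusted p = 0.199).

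Esco2, an acetyltransferase that locks cohesin around sister chromatids in S phase, had the next largest fall in WT kidneys after Cdk1. It ran in KO kidneys from 6.20 to 6.86 with a median of 6.6 at 7 weeks and from 6.30 to 8.26 with a median of 6.74 at 4 weeks. Esco2 ran in WT kidneys from 4.28 to 5.86 with a median of 4.92 at 7 weeks and from 5.50 to 7.41 with a median of 6.55 at 4 weeks. The WT kidneys at 7 weeks were low, with 7 of 8 below every WT kidney at 4 weeks, and the KO ages overlapped. Esco2 did not pass in KO kidneys (-0.52 ± 0.24, adjusted p = 0.0772), fell in WT kidneys (-1.52 ± 0.24, 2.87-fold lower, adjusted p = 1.06e-05) and differed between the courses (1.00 ± 0.33, adjusted p = 0.0334). The last call did not pass when any 1 of 10 mice was left out, with adjusted p up to 0.0602. Brca1, of homologous recombination, passed in neither course, at 0.28 ± 0.16 in KO and -0.32 ± 0.16 in WT kidneys, nor in the difference (0.60 ± 0.22, adjusted p = 0.0571).

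Among the transcription factors, E2f8, a repressor of the E2F family whose gene is itself switched on in S phase, ran in KO kidneys from 5.92 to 6.66 with a median of 6.24 at 7 weeks and from 5.11 to 6.05 with a median of 5.68 at 4 weeks. E2f8 ran in WT kidneys from 4.34 to 5.20 with a median of 4.93 at 7 weeks and from 4.97 to 5.94 with a median of 5.25 at 4 weeks. Of the KO kidneys at 7 weeks 6 lay above every KO kidney at 4 weeks, and of the WT kidneys at 7 weeks 7 lay below every WT kidney at 4 weeks. It rose in KO kidneys (0.62 ± 0.14, adjusted p = 0.000498), fell in WT kidneys (-0.51 ± 0.14, adjusted p = 0.00506) and differed between the courses (1.13 ± 0.20, adjusted p = 0.000116). E2f1, an activator of S-phase genes, ran in KO kidneys from 7.05 to 7.54 with a median of 7.26 at 7 weeks and from 6.72 to 7.48 with a median of 7.10 at 4 weeks. E2f1 ran in WT kidneys from 6.29 to 6.87 with a median of 6.59 at 7 weeks and from 6.66 to 7.30 with a median of 6.90 at 4 weeks. The ages overlapped in both genotypes, while every KO kidney at 7 weeks was above every WT kidney of that age. It did not pass in KO kidneys (0.13 ± 0.10), fell in WT kidneys (-0.38 ± 0.10, adjusted p = 0.00312) and differed between the courses (0.52 ± 0.14, adjusted p = 0.00869). Foxm1, an activator of mitotic genes, rose in KO kidneys (0.37 ± 0.15, adjusted p = 0.0481), a call that did not pass when any 1 of 20 mice was left out, and the difference in courses did not pass (0.45 ± 0.21, adjusted p = 0.161).

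The mitotic cyclins and their kinase fell in WT kidneys in 3 of 3 cases, and 0 of 3 passed in KO kidneys. Cdk1, the kinase that starts mitosis, ran in KO kidneys from 7.13 to 8.31 with a median of 8.11 at 7 weeks and from 7.41 to 9.39 with a median of 8.03 at 4 weeks. Cdk1 ran in WT kidneys from 5.39 to 6.72 with a median of 5.89 at 7 weeks and from 6.77 to 8.54 with a median of 7.64 at 4 weeks. All 8 WT kidneys at 7 weeks lay below every WT kidney at 4 weeks and every KO kidney at 7 weeks, while the KO ages overlapped. Cdk1 did not pass in KO kidneys (-0.25 ± 0.23, adjusted p = 0.403), fell in WT kidneys (-1.65 ± 0.23, 3.13-fold lower, adjusted p = 2.82e-06) and differed between the courses (1.40 ± 0.33, 2.64-fold, adjusted p = 0.00254). The cyclins Ccna2 and Ccnb2, its activating partners, stood at 0.15 ± 0.23 and -0.09 ± 0.24 in KO kidneys without passing, and fell in WT kidneys (-1.25 ± 0.23 and -1.36 ± 0.24). Their courses differed, by 1.40 ± 0.33 for Ccna2 and 1.27 ± 0.34 for Ccnb2.

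Both chromosome structure genes fell in WT kidneys and 0 of 2 passed in KO kidneys. Top2a, which untangles replicated chromosomes, ran in KO kidneys from 6.6 to 7.59 with a median of 7.41 at 7 weeks and from 6.52 to 8.01 with a median of 6.89 at 4 weeks. Top2a ran in WT kidneys from 5.02 to 6.21 with a median of 5.34 at 7 weeks and from 5.90 to 7.19 with a median of 6.54 at 4 weeks. Of the WT kidneys at 7 weeks 7 lay below every WT kidney at 4 weeks, and the KO ages overlapped. Top2a did not pass in KO kidneys (0.21 ± 0.20), fell in WT kidneys (-1.08 ± 0.20, 2.11-fold lower, adjusted p = 0.000139) and differed between the courses (1.29 ± 0.29, adjusted p = 0.00175). Mki67, which codes for the Ki-67 antigen used to count cycling cells, ran in KO kidneys from 8.57 to 9.55 with a median of 9.12 at 7 weeks and from 8.32 to 9.84 with a median of 8.75 at 4 weeks. Mki67 ran in WT kidneys from 6.52 to 7.97 with a median of 6.95 at 7 weeks and from 7.46 to 9.35 with a median of 8.27 at 4 weeks. Every KO kidney at 7 weeks was above every WT kidney of that age, and 6 of 8 WT kidneys at 7 weeks were below every WT kidney at 4 weeks. It did not pass in KO kidneys (0.21 ± 0.24), fell in WT kidneys (-1.29 ± 0.24, 2.45-fold lower, adjusted p = 9.26e-05) and differed between the courses (1.5 ± 0.34, adjusted p = 0.00172).

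Of 8 mitotic kinases and checkpoint genes, 4 rose in KO kidneys, 4 fell in WT kidneys and 6 differed between the courses. The shares of all genes for these counts were 21.4% higher, 14.1% lower and 9.80% upward. Plk1, a kinase of mitotic entry and exit, ran in KO kidneys from 6.6 to 7.42 with a median of 7.10 at 7 weeks and from 6.04 to 6.90 with a median of 6.5 at 4 weeks. Plk1 ran in WT kidneys from 5.70 to 6.29 with a median of 5.91 at 7 weeks and from 5.76 to 6.76 with a median of 6.05 at 4 weeks. Of the KO kidneys at 7 weeks 6 lay above every KO kidney at 4 weeks, and the WT ages overlapped. It rose in KO kidneys (0.65 ± 0.14, adjusted p = 0.000248) and did not pass in WT kidneys (-0.19 ± 0.14). Bub1b, a checkpoint protein that restrains anaphase, ran in KO kidneys from 5.99 to 6.86 with a median of 6.44 at 7 weeks and from 5.35 to 6.32 with a median of 5.95 at 4 weeks. Bub1b ran in WT kidneys from 5.10 to 5.83 with a median of 5.32 at 7 weeks and from 5.30 to 6.43 with a median of 5.72 at 4 weeks. The ages overlapped in both genotypes, with 5 of 8 KO kidneys at 7 weeks above every KO kidney at 4 weeks. It rose in KO kidneys (0.52 ± 0.15, adjusted p = 0.0041) and fell in WT kidneys (-0.41 ± 0.15, adjusted p = 0.0335), a fall that did not pass when any 1 of 7 mice was left out. Ttk, the kinase that starts the checkpoint signal, ran in KO kidneys from 5.56 to 6.19 with a median of 5.84 at 7 weeks and from 5.32 to 6.53 with a median of 5.79 at 4 weeks. Ttk ran in WT kidneys from 4.63 to 5.37 with a median of 5.11 at 7 weeks and from 5.43 to 6.15 with a median of 5.65 at 4 weeks. All 8 WT kidneys at 7 weeks lay below every WT kidney at 4 weeks, and the KO ages overlapped. Ttk did not pass in KO kidneys (0.01 ± 0.15) and fell in WT kidneys (-0.61 ± 0.15, adjusted p = 0.00171). The courses differed for Plk1 (0.84 ± 0.19), Bub1b (0.93 ± 0.21) and Ttk (0.62 ± 0.21, adjusted p = 0.0358). The Ttk difference did not pass when any 1 of 12 mice was left out.

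Aurka, the spindle pole kinase, and Aurkb, the kinase of the chromosomal passenger complex, rose in KO kidneys by 0.37 ± 0.12 and 0.36 ± 0.12 and stood at -0.21 ± 0.12 and -0.29 ± 0.12 in WT kidneys without passing. Birc5, a partner of Aurkb in that complex, passed in neither course, at -0.07 ± 0.18 in KO and -0.33 ± 0.18 in WT kidneys, and its difference in courses was 0.26 ± 0.26 (adjusted p = 0.564). Bub1, a checkpoint kinase, fell in WT kidneys (-0.81 ± 0.21) and did not pass in the difference (0.62 ± 0.30, adjusted p = 0.174). Melk, a kinase of cycling cells, fell in WT kidneys (-0.44 ± 0.14) and differed between the courses (0.61 ± 0.19, adjusted p = 0.0247).

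All 4 kinetochore genes fell in WT kidneys and 0 of 4 passed in KO kidneys. Ndc80, which grips microtubules at the kinetochore, ran in KO kidneys from 5.94 to 6.96 with a median of 6.55 at 7 weeks and from 5.28 to 7.77 with a median of 6.21 at 4 weeks. Ndc80 ran in WT kidneys from 4.14 to 5.35 with a median of 4.91 at 7 weeks and from 5.56 to 6.93 with a median of 5.86 at 4 weeks. All 8 WT kidneys at 7 weeks lay below every WT kidney at 4 weeks, and the KO kidneys at 4 weeks had the widest spread. Ndc80 did not pass in KO kidneys (0.08 ± 0.24), fell in WT kidneys (-1.09 ± 0.24, 2.13-fold lower, adjusted p = 0.000648) and differed between the courses (1.17 ± 0.34, adjusted p = 0.0136). Cenpf, a protein of the outer kinetochore, ran in KO kidneys from 5.71 to 6.49 with a median of 6.18 at 7 weeks and from 5.77 to 6.93 with a median of 6.14 at 4 weeks. Cenpf ran in WT kidneys from 4.49 to 5.56 with a median of 5.24 at 7 weeks and from 5.38 to 6.5 with a median of 5.74 at 4 weeks. The ages overlapped in both genotypes, and 6 of 8 WT kidneys at 7 weeks were below every WT kidney at 4 weeks. It did not pass in KO kidneys (-0.14 ± 0.16), fell in WT kidneys (-0.68 ± 0.16, adjusted p = 0.00169) and did not pass in the difference (0.54 ± 0.23, adjusted p = 0.111). Nuf2, the partner of Ndc80, and Cenpe, a kinetochore motor, stood at -0.07 ± 0.20 and 0.03 ± 0.15 in KO kidneys without passing, fell in WT kidneys (-0.80 ± 0.20 and -0.46 ± 0.15) and did not pass in the difference (0.73 ± 0.28 and 0.49 ± 0.21). Without WT mouse 6 at 4 weeks the WT fall of Cenpe did not pass (adjusted p = 0.0631).

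Of 9 spindle motors and microtubule proteins, 2 rose in KO kidneys, 8 fell in WT kidneys and 6 differed between the courses. The KO count is near the share of all genes higher, 21.4%, while 14.1% of all genes fell in WT kidneys. Kif11, the motor that pushes the spindle poles apart, ran in KO kidneys from 7.00 to 7.83 with a median of 7.57 at 7 weeks and from 7.03 to 8.74 with a median of 7.44 at 4 weeks. Kif11 ran in WT kidneys from 5.40 to 6.47 with a median of 5.86 at 7 weeks and from 6.4 to 7.85 with a median of 7.00 at 4 weeks. Of the WT kidneys at 7 weeks 7 lay below every WT kidney at 4 weeks, and the KO ages overlapped. Kif11 did not pass in KO kidneys (-0.19 ± 0.20), fell in WT kidneys (-1.15 ± 0.20, 2.22-fold lower, adjusted p = 4.49e-05) and differed between the courses (0.96 ± 0.28, adjusted p = 0.0157). Tpx2, a spindle assembly factor that activates Aurka, ran in KO kidneys from 6.15 to 6.8 with a median of 6.53 at 7 weeks and from 5.39 to 6.68 with a median of 5.99 at 4 weeks. Tpx2 ran in WT kidneys from 5.00 to 5.83 with a median of 5.25 at 7 weeks and from 5.38 to 6.20 with a median of 5.73 at 4 weeks. The KO ages overlapped, and 7 of 8 WT kidneys at 7 weeks were below every WT kidney at 4 weeks. It rose in KO kidneys (0.51 ± 0.14, adjusted p = 0.00383), fell in WT kidneys (-0.50 ± 0.14, adjusted p = 0.00705) and differed between the courses (1.00 ± 0.20, adjusted p = 0.000517).

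Kif23, Kif20a and Prc1 act at the central spindle between the separating chromosomes. Kif23 rose in KO kidneys (0.52 ± 0.20, adjusted p = 0.0346), a call that did not pass when any 1 of 8 mice was left out, and fell in WT kidneys (-0.88 ± 0.20). Kif20a and Prc1 stood at 0.39 ± 0.18 and 0.35 ± 0.21 in KO kidneys without passing and fell in WT kidneys (-0.71 ± 0.18 and -0.83 ± 0.21). The differences in courses were 1.40 ± 0.28 for Kif23, 1.11 ± 0.26 for Kif20a and 1.18 ± 0.30 for Prc1, and each passed. Nusap1, a protein of spindle microtubules, fell in WT kidneys (-1.06 ± 0.19), with all 8 kidneys at 7 weeks below every WT kidney at 4 weeks, and the difference in courses did not pass (0.68 ± 0.27, adjusted p = 0.0825). Dlgap5, another spindle protein, and Kif4, a motor on chromosome arms, fell in WT kidneys (-0.36 ± 0.12 and -0.40 ± 0.15), and Dlgap5 also differed between the courses (0.61 ± 0.17). The fall did not pass when any 1 of 3 mice was left out for Dlgap5, and any 1 of 9 for Kif4. Kif2c, which dismantles microtubule ends, passed in neither course (0.23 ± 0.13 in KO and -0.27 ± 0.13 in WT kidneys).

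Of the 3 genes of anaphase and protein destruction, Ube2c, which feeds ubiquitin to the anaphase-promoting complex, fell in WT kidneys and differed between the courses. It ran in KO kidneys from 7.61 to 8.49 with a median of 8.27 at 7 weeks and from 7.73 to 8.93 with a median of 8.04 at 4 weeks. Ube2c ran in WT kidneys from 6.20 to 7.43 with a median of 6.75 at 7 weeks and from 6.90 to 8.22 with a median of 7.68 at 4 weeks. The ages overlapped in both genotypes, while every KO kidney at 7 weeks was above every WT kidney of that age. Ube2c did not pass in KO kidneys (0.02 ± 0.18), fell in WT kidneys (-0.85 ± 0.18, 1.8-fold lower, adjusted p = 0.000355) and differed between the courses (0.87 ± 0.25, adjusted p = 0.0125). Espl1, the protease separase that opens cohesin, ran in KO kidneys from 5.71 to 6.25 with a median of 5.91 at 7 weeks and from 5.30 to 6.27 with a median of 5.56 at 4 weeks. Espl1 ran in WT kidneys from 5.27 to 5.61 with a median of 5.44 at 7 weeks and from 5.09 to 5.85 with a median of 5.67 at 4 weeks. The ages overlapped in both genotypes, while every KO kidney at 7 weeks was above every WT kidney of that age. It passed in neither course (0.24 ± 0.11 in KO and -0.14 ± 0.11 in WT kidneys), nor in the difference (0.38 ± 0.16, adjusted p = 0.0977). Cdc20, an activator of the same complex, stood at 0.23 ± 0.16 in KO and -0.33 ± 0.16 in WT kidneys without passing.

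Both genes of cytokinesis, the division of the cell body, fell in WT kidneys, beside 14.1% of all genes. In KO kidneys 1 of 2 rose, beside 21.4% of all genes. Anln, a scaffold of the contractile ring, ran in KO kidneys from 6.57 to 8.01 with a median of 7.64 at 7 weeks and from 6.31 to 7.63 with a median of 6.75 at 4 weeks. Anln ran in WT kidneys from 5.00 to 5.90 with a median of 5.21 at 7 weeks and from 5.79 to 7.44 with a median of 6.14 at 4 weeks. Of the KO kidneys at 7 weeks 4 lay above every KO kidney at 4 weeks, and of the WT kidneys at 7 weeks 7 lay below every WT kidney at 4 weeks. It rose in KO kidneys (0.70 ± 0.21, 1.62-fold, adjusted p = 0.0086), fell in WT kidneys (-0.96 ± 0.21, 1.95-fold lower, adjusted p = 0.000817) and had the largest difference in courses of the 48 members (1.66 ± 0.30, 3.15-fold, adjusted p = 0.000206). Ect2, which activates RhoA at the cleavage site, ran in KO kidneys from 8.42 to 9.09 with a median of 8.68 at 7 weeks and from 8.07 to 9.64 with a median of 8.70 at 4 weeks. Ect2 ran in WT kidneys from 7.81 to 8.34 with a median of 8.08 at 7 weeks and from 8.52 to 9.11 with a median of 8.70 at 4 weeks. All 8 WT kidneys at 7 weeks lay below every WT kidney at 4 weeks, and the KO ages overlapped. It did not pass in KO kidneys (-0.11 ± 0.14), fell in WT kidneys (-0.65 ± 0.14, adjusted p = 0.000748) and did not pass in the difference (0.55 ± 0.20, adjusted p = 0.062).

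**Figure D4:**
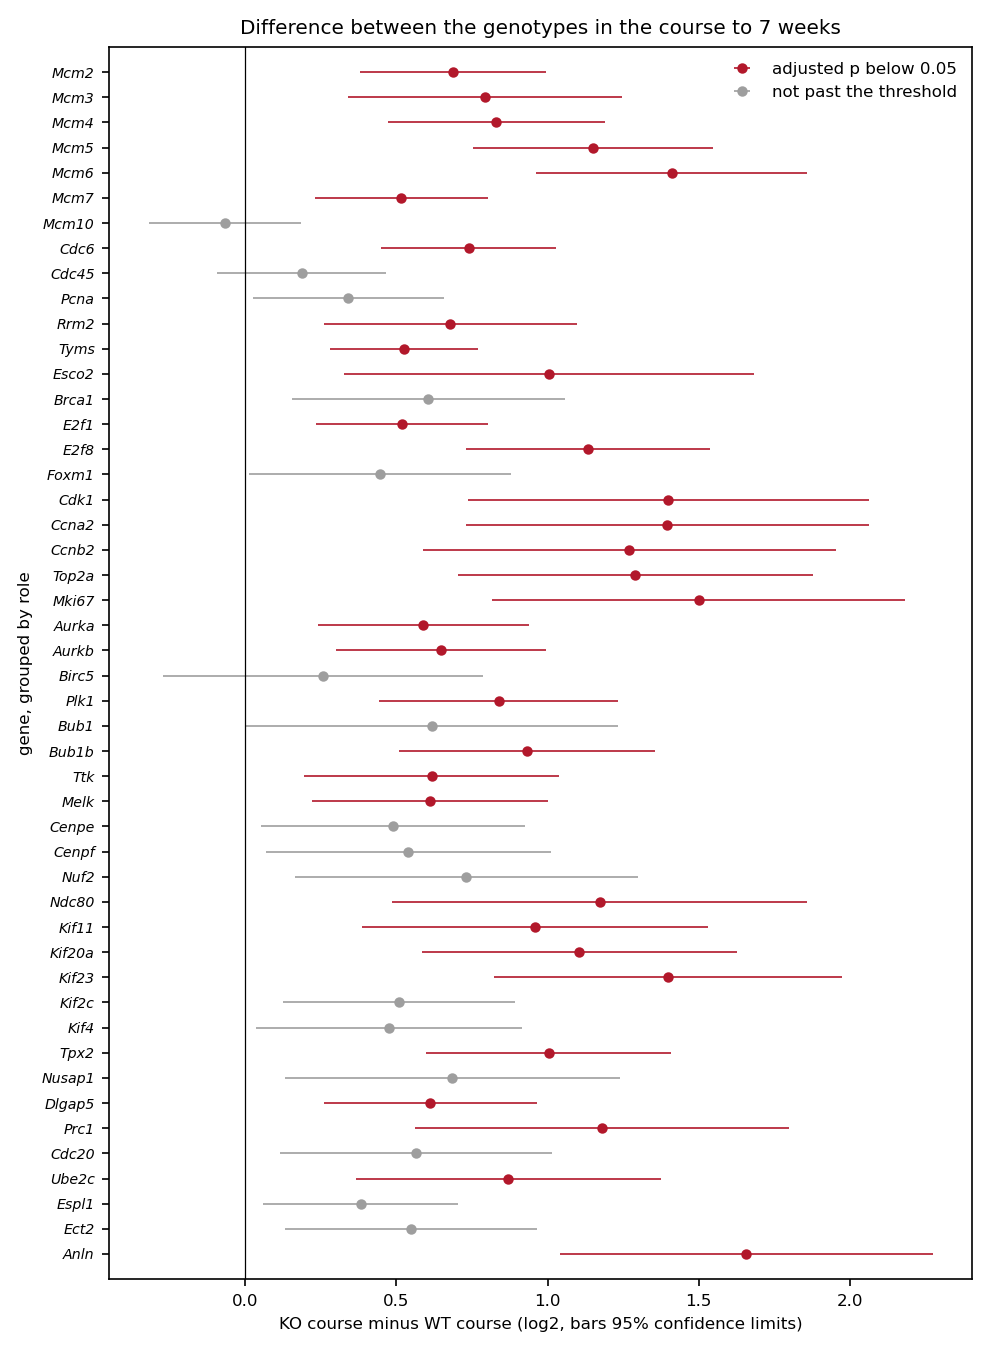
Difference in courses, KO minus WT, for each of the 48 members on the log2 scale, with 95% confidence limits; red points passed at an adjusted p below 0.05. The 32 red points all lie to the right of 0, and Mcm10 is the only member with an estimate to the left.

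Groups of 8 with no overlap between ages were few. All 8 KO kidneys at 7 weeks lay above every KO kidney at 4 weeks for 4 of 48 members (Mcm2, Mcm5, Mcm7 and Cdc6), beside 6.89% of all genes, and below them for 0, beside 2.69%. These KO counts are near the shares of all genes. All 8 WT kidneys at 7 weeks lay below every WT kidney at 4 weeks for 6 of 48 members (Cdk1, Ect2, Ndc80, Nusap1, Ttk and Tyms), beside 4.48% of all genes, and above them for 0, beside 7.38%.

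At 7 weeks KO kidneys had a higher signal of nearly every cell cycle transcript than WT kidneys. Of 48 members 47 were higher, 0 were lower and 1, Mcm10 (-0.11 ± 0.09), did not pass, beside 15.6% of all genes higher and 16.7% lower. The median member difference was 1.00, beside -0.06 over all genes. Anln led with 2.22 ± 0.21 (4.67-fold, adjusted p = 6.11e-10), followed by Cdk1 with 2.05 ± 0.23 (4.13-fold), Mki67 with 2.00 ± 0.24 and Ccna2 with 1.88 ± 0.23. Ccnb2 (1.82 ± 0.24), Top2a (1.79 ± 0.20), Kif23 (1.70 ± 0.20) and Mcm6 (1.62 ± 0.16) came next. The smallest differences that passed were those of Cdc45 (0.31 ± 0.10, adjusted p = 0.0127), Espl1 (0.46 ± 0.11) and Tyms (0.50 ± 0.09). For 42 of 48 members every KO kidney was above every WT kidney, beside 7.62% of all genes, and for 0 every one was below, beside 5.42%. The exceptions were Brca1, Cdc45, Foxm1, Mcm4, Mcm10 and Melk. With each array centred on its median, which moved the median of all genes to -0.18, 46 members were higher and Mcm10 was lower, while the share of passing genes that were higher over all genes went to 23.6% against 48.4% as deposited. At this age 15 of 15 macrophage, 9 of 9 injured tubule, 9 of 9 fibroblast and 7 of 8 T cell markers were also higher and 10 of 10 proximal tubule markers lower in KO kidneys, and their part in the result was not tested.

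At 4 weeks 0 of 48 members passed between KO and WT kidneys in limma, beside 0.0316% of all genes higher and 0.00902% lower. At an unadjusted p below 0.05 there were 21 members, beside 2044 of the 22180 genes. The estimates were positive for 45 of 48 members, with a median of 0.29 beside -0.01 over all genes. The largest were Birc5 at 0.66 ± 0.18 (adjusted p = 0.229), Cdk1 at 0.65 ± 0.23 (adjusted p = 0.397) and Kif11 at 0.64 ± 0.20 (adjusted p = 0.3), and the negative ones were Mcm10 (-0.04 ± 0.09), Tyms (-0.03 ± 0.09) and Mcm2, at an estimate that rounds to 0. The medians were 0.55 for the mitotic cyclins and their kinase, 0.50 for chromosome structure, 0.44 for kinetochore genes and 0.13 for licensing and helicase genes. For 0 of 48 members were the 4-week groups free of overlap, beside 0.0271% of all genes with every KO kidney higher and 0.0225% with every one lower. Estimates for several lists of other cell markers also leaned to 1 side at this age, and nearly all missed the threshold. Macrophage estimates were positive for 14 of 15 markers (median 0.36, 6 at an unadjusted p below 0.05 and 0 past the threshold), fibroblast estimates for 8 of 9 (median 0.39, 5 and 0) and injured tubule estimates for 9 of 9 (median 0.23, 4 and 1). Loop of Henle and distal nephron estimates were negative for 9 of 9 (median -0.27, 2 and 0). In the other lists estimates were positive for 4 of 8 T cell (median 0.04), 5 of 8 B cell (0.13), 6 of 8 endothelial (0.05) and 4 of 4 podocyte markers (0.10). They were negative for 8 of 10 proximal tubule (-0.05) and 2 of 3 erythroid markers (-0.16), and 0 markers of these lists passed. The part of these cells in the 4-week estimates was not tested. A value that misses the threshold does not show that the genotypes were alike at this age.

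Setting the KO kidneys at 7 weeks beside the younger WT kidneys, a comparison across age given as a description, the KO mean was higher for 44 of 48 members with a median difference of 0.51. A median over all genes was not taken for this comparison. Every KO kidney at 7 weeks was above every WT kidney at 4 weeks for 5 of 48 members, Mcm2, Mcm5, Mcm7, Cdc6 and Aurka, beside 9.31% of all genes, and below for 0, beside 6.48%. The count of members above is near the share of all genes.

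Single mice varied together across the set. The mean of the 48 members per mouse ran from 6.68 to 7.34 with a median of 7.12 in KO kidneys at 7 weeks and from 6.52 to 7.39 with a median of 6.77 in KO kidneys at 4 weeks. In WT kidneys it ran from 5.73 to 6.36 with a median of 5.91 at 7 weeks and from 6.13 to 7.09 with a median of 6.51 at 4 weeks. At 7 weeks the genotypes did not overlap on this mean, and at 4 weeks they did. Macrophage marker means were apart at 7 weeks too, at 8.33 to 9.70 in KO and 6.59 to 6.82 in WT kidneys. So were injured tubule marker means, at 9.0 to 10.14 and 7.03 to 7.31. The mice named next are single cases, and the relation of member means to marker means was not tested. KO mice 5 and 8 at 4 weeks, at 7.39 and 7.29, had means as high as the KO kidneys at 7 weeks, with macrophage marker means of 6.95 and 6.94 and injured tubule marker means of 7.29 and 7.48. KO mouse 4 at 4 weeks had the highest injured tubule mean of its group, 8.41, with a member mean of 6.61. Among WT kidneys at 4 weeks mouse 6 was highest in the members at 7.09 with a macrophage mean of 6.64, while mice 5 and 8 were highest in macrophage markers, at 7.20 and 7.60, with member means of 6.34 and 6.53.

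**Figure D5:**
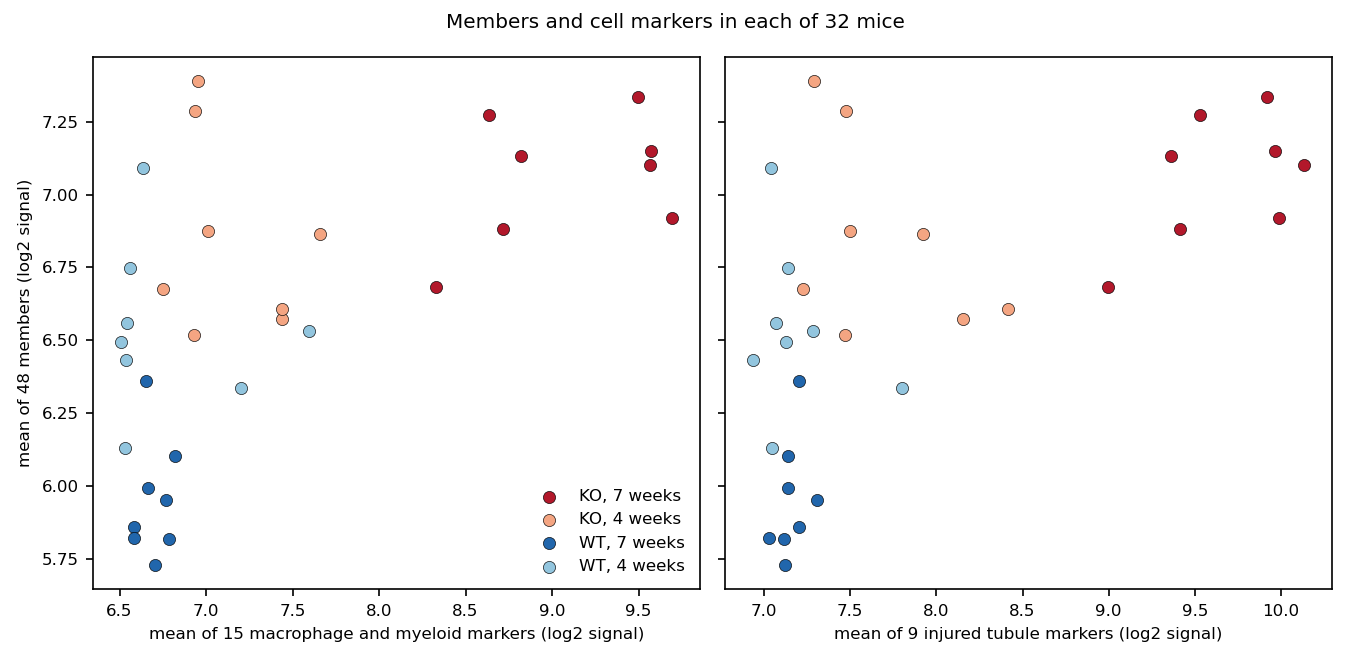
Mean log2 signal of the 48 members in each mouse (vertical axis) against the mean of 15 macrophage and myeloid markers (left) and of 9 injured tubule markers (right), 1 point per mouse. The KO kidneys at 7 weeks are apart on the marker axes from all other groups, and on the member axis from the WT kidneys at 7 weeks. The KO kidneys at 4 weeks with the highest member means, 7.39 and 7.29, are not those with the highest marker means. The relation of member means to marker means was not tested.

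Genes of the same pathways outside the set were counted from lists chosen with earlier results known. The shares of all genes to read these counts against were 21.4% higher and 21.3% lower for the KO course, 14.1% lower and 15.4% higher for the WT course, 9.80% upward and 7.24% downward for the difference in courses, and 15.6% higher and 16.7% lower at 7 weeks. Of 39 other replication genes 9 rose and 6 fell in KO kidneys with age, and 1 rose and 21 fell in WT kidneys. The KO counts are near or below the shares of all genes, 21.4% and 21.3%, and say little about these genes, while the median difference was 0.02 in KO and -0.26 in WT kidneys. The difference in courses passed for 14 with the KO course higher and 0 with it lower. At 7 weeks 26 were higher and 0 lower in KO kidneys. The polymerase subunit Pold1 rose in KO kidneys (0.70 ± 0.08), the polymerase subunit Pola1 fell in WT kidneys (-0.73 ± 0.10), and Chaf1b, which places histones on new DNA, had the difference with the smallest p (0.99 ± 0.16, adjusted p = 3.8e-05). Of 62 other mitosis genes 10 rose and 6 fell in KO kidneys, and 2 rose and 43 fell in WT kidneys. The KO counts lie below the shares of all genes, and the median difference was -0.05 in KO and -0.47 in WT kidneys. Their courses differed for 21 upward and 2 downward, and at 7 weeks 52 were higher and 1 lower in KO kidneys. The condensin subunits Ncaph (1.21 ± 0.23) and Ncapg2 (0.97 ± 0.20) had differences in courses that passed, and the checkpoint gene Mad2l1 fell in WT kidneys (-1.18 ± 0.16). Spc25, of the Ndc80 complex, and Cks2, a Cdk1 subunit, fell in KO kidneys (-0.93 ± 0.13 and -0.73 ± 0.11).

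Of 21 genes of the DNA damage response and homologous repair, 6 rose and 2 fell in KO kidneys with age, and 0 rose and 13 fell in WT kidneys. The KO count upward is near the share of all genes, 21.4%, and the one downward is below it. The courses differed for 9 upward and 0 downward, and at 7 weeks 13 were higher and 0 lower in KO kidneys. Rad54l, of strand exchange, and Bard1, the partner of Brca1, rose in KO kidneys (0.48 ± 0.11 and 0.37 ± 0.08), and their courses differed by 0.94 ± 0.15 and 0.70 ± 0.12. The damage kinases Atr and Atm fell in both genotypes, with -0.62 ± 0.10 in KO and -0.56 ± 0.10 in WT kidneys for Atr and -0.34 ± 0.08 and -0.44 ± 0.08 for Atm.

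Of 17 G1 cyclins, kinases and E2F factors 11 rose and 2 fell in KO kidneys with age, and 2 rose and 2 fell in WT kidneys. The WT counts are near the shares of all genes, 15.4% higher and 14.1% lower. The courses differed for 6 upward and 0 downward, and at 7 weeks 10 were higher and 4 lower in KO kidneys. Myc, which drives cell growth, rose in KO kidneys (1.49 ± 0.16, adjusted p = 5.98e-09) and its course differed (1.38 ± 0.23). The G1 kinase Cdk6 and cyclin D2, Ccnd2, rose in KO kidneys by 0.97 ± 0.11 and 0.72 ± 0.10, with differences in courses of 0.78 ± 0.15 and 0.59 ± 0.15. Cyclin D1, Ccnd1, stood at -0.44 ± 0.16 in that test without passing (adjusted p = 0.0508). Of 27 cell cycle inhibitors and quiescence genes 10 rose and 7 fell in KO kidneys, 6 rose and 6 fell in WT kidneys, and the courses differed for 5 upward and 1 downward. At 7 weeks 7 were higher and 4 lower in KO kidneys. The falls in KO kidneys, both WT counts and the lower count at 7 weeks are near the shares of all genes, 21.3%, 15.4%, 14.1% and 16.7%. Cdkn1a, which codes for the Cdk inhibitor p21, rose in KO kidneys (2.13 ± 0.23, 4.38-fold, adjusted p = 5.43e-09), its course differed (1.52 ± 0.32), and at 7 weeks it was higher in KO than in WT kidneys (1.83 ± 0.23). The antiproliferative gene Btg2 rose in KO kidneys (1.04 ± 0.12) and differed in course (1.09 ± 0.16). At 4 weeks 0 genes of these lists passed between KO and WT kidneys in limma, with Cdkn1c, the inhibitor p57, at 0.35 ± 0.08 (adjusted p = 0.101).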

How the data were processed

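Kidney RNA of 32 mice, 8 per group, was stabilised, extracted and hybridised by the authors, 1 array per mouse. The authors deposited gene-level log2 signals after robust multi-array averaging, per the labels, made with Affymetrix Expression Console, per the submitters' processing notes (version not stated). No unit was changed, no filter was applied, and all 32 columns were matched to a mouse by their labels. Of 41345 features 23521 named 1 gene symbol, 1814 several and 16010 none in the annotation used here, which left 22180 genes after taking the brightest feature of each.

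One limma 3.58.1 model (R 4.3.3) of the 4 groups, with 28 residual degrees of freedom, gave 5 contrasts, with empirical Bayes variances and Benjamini-Hochberg adjustment over all genes at 0.05. The script was tested on simulated data with known changes. Figures used Python 3.11.15 and matplotlib 3.10.9. The members, the gene lists and the rule for named genes were chosen with earlier results of these data known. Every member could be named, and values per group were given for Mki67, Top2a, Cdk1 and, in each role class, the members with the smallest p in each course and in their difference. In the other pathway lists, genes could be named where they ranked, per comparison, in the 4 smallest p of those past the threshold or the 2 largest changes of the rest. Alternatives were the mean of all features of a gene, genes below the 30th percentile left out, centred arrays, a mean-variance trend, array weights, only the compared groups, a replicate block, 1.5-fold as a minimum, each mouse left out in turn, and pairs of mice left out (WT mice 5 and 8 and KO mice 4 and 5, all at 4 weeks). Groups were taken from the labels, and each array is a separate mouse, so p-values measure the spread between mice. Scan batches were not analysed here.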

Additional observations from a re-analysis of the deposited data

Results flagged for a closer look

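Of 192 groups of 8 values (48 members in 4 groups) 13 held a mouse that stood far from the others of its group by Dixon's criterion, and chance gives about 1 in 20 groups. In KO kidneys at 7 weeks the log2 signal stood above its group for Espl1 in mouse 7 (6.25) and stood below its group for Kif23 in mouse 3 (6.37) and Ube2c in mouse 3 (7.61). In KO kidneys at 4 weeks the log2 signal stood above its group for Aurkb in mouse 5 (7.30). In WT kidneys at 7 weeks the log2 signal stood above its group for Mcm4 in mouse 1 (7.88), Mcm5 in mouse 1 (8.05), Pcna in mouse 1 (9.60) and Tpx2 in mouse 1 (5.83). In WT kidneys at 4 weeks the log2 signal stood above its group for Cdc6 in mouse 1 (5.43), Birc5 in mouse 6 (5.95), Bub1 in mouse 6 (6.85), Ndc80 in mouse 6 (6.93) and Cdc20 in mouse 6 (7.32). WT mouse 1 at 7 weeks and WT mouse 6 at 4 weeks account for 8 of the 13, and each had the highest mean over the 48 members in its group (6.36 and 7.09).

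The KO course differed from the WT course by limma's test of the difference (adjusted over 22180 genes) for 32 members. The log2 differences in course, KO minus WT, were Anln 1.66, Mki67 1.5, Mcm6 1.41, Cdk1 1.40, Kif23 1.40, Ccna2 1.40, Top2a 1.29, Ccnb2 1.27, Prc1 1.18, Ndc80 1.17, Mcm5 1.15, E2f8 1.13, Kif20a 1.11, Esco2 1.00, Tpx2 1.00 and Kif11 0.96. They were smaller for Bub1b 0.93, Ube2c 0.87, Plk1 0.84, Mcm4 0.83, Mcm3 0.79, Cdc6 0.74, Mcm2 0.69, Rrm2 0.68, Aurkb 0.65, Ttk 0.62, Dlgap5 0.61, Melk 0.61, Aurka 0.59, Tyms 0.53, E2f1 0.52 and Mcm7 0.52. All 32 were positive, beside 9.80% of all genes.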

How the results depend on the processing

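Over the single mice left out, members higher in KO kidneys with age numbered 14 to 18 and lower 0 to 3 (median difference 0.16 to 0.30), members lower in WT kidneys 26 to 33 (-0.54 to -0.42), courses that differed 30 to 42 (0.62 to 0.77), and members higher in KO than WT kidneys 47 to 47 at 7 weeks (0.95 to 1.05) and 0 to 0 at 4 weeks (0.21 to 0.38). The 42 came without KO mouse 5 at 4 weeks. In the fit with array weights its array had a weight of 0.388, the lowest after 0.337 for KO mouse 4 at 4 weeks. The single member lower in KO kidneys, Pcna, did not pass without KO mouse 1 or 5 at 4 weeks or KO mouse 7 at 7 weeks, and 3 were lower without KO mouse 4 at 4 weeks. With a change of at least 1.5-fold required, 8 members were higher and 0 lower in KO kidneys, and with only the compared groups in the fit 0 were lower. With arrays centred on their medians 3 were lower in KO kidneys, as Esco2 (-0.59, adjusted p = 0.0362) and Nusap1 (-0.45, adjusted p = 0.0483) also passed. The KO rises of Kif23 (0.44, adjusted p = 0.0617) and Foxm1 (0.29, adjusted p = 0.0984) did not pass. Nor did the WT falls of Mcm5 (-0.34, adjusted p = 0.0612) and Kif4 (-0.38, adjusted p = 0.0561). With the same centring 1 member (Mcm10) was lower in KO than WT kidneys at 7 weeks, and Cdc45 did not pass there (0.20, adjusted p = 0.0910). The Ttk difference in courses did not pass either (0.52, adjusted p = 0.0674). Apart from these counts, the alternatives listed in the processing notes left each count of members that passed within 1.5 times its value.

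Values near 0 changed sign. In the KO course centred arrays gave Ttk -0.067, Cenpe -0.044, Ube2c -0.055 and Kif4 -0.0022, array weights gave Nuf2 0.00074, and leaving out KO mice 4 and 5 at 4 weeks gave Mcm10 0.0014, Tyms 0.015 and Birc5 0.016. In the WT course Mcm2 was 0.0024 (centred arrays) and Mcm7 -0.049 (without WT mice 5 and 8 at 4 weeks). Between the genotypes at 4 weeks Espl1 was -0.039 without WT mice 5 and 8. With 1 mouse left out at a time, the ranges that crossed 0 in the KO course were Mcm10 -0.051 to 0.037, Tyms -0.090 to 0.013, Ccnb2 -0.21 to 0.023, Birc5 -0.15 to 0.065, Ttk -0.068 to 0.10, Cenpe -0.047 to 0.13, Nuf2 -0.17 to 0.083, Ndc80 -0.076 to 0.28, Ube2c -0.042 to 0.13 and Ect2 -0.21 to 0.015. With 1 mouse left out at a time, the ranges that crossed 0 in the WT course were Mcm2 -0.10 to 0.035, Mcm3 -0.16 to 0.026, Mcm7 -0.035 to 0.079 and Foxm1 -0.14 to 0.032. With 1 mouse left out at a time, the ranges that crossed 0 in KO against WT at 4 weeks were Mcm2 -0.089 to 0.049, Mcm10 -0.080 to 0.0094, Tyms -0.069 to 0.035, Espl1 -0.0078 to 0.13 and Ect2 -0.065 to 0.16. In the full data none of these members passed in the comparison where its sign changed, although several passed in other comparisons. The cause of the changes was not tested.

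The replicate numbers in the labels showed no clear pairing of the mice. Over 48 same-number pairs between groups the correlation of deviations ran from -0.27 to 0.23 (median 0.03), and 9 exceeded 0.1. Such weak correlations cannot exclude a pairing. With the replicate number as a block 15 members were higher and 1 lower in KO kidneys, 30 lower in WT kidneys, 32 differed in course, and 47 and 0 were higher in KO than WT kidneys at 7 and 4 weeks. With 8 arrays per group and no scanner files used here, scan batch and signal over background were not analysed, and small changes of dim genes may not be resolved.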

Other observations

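The members also varied together among mice of the same group. The mean correlation over pairs of members across the 8 mice was 0.649 in KO kidneys at 7 weeks and 0.617 at 4 weeks. In WT kidneys it was 0.426 at 7 weeks and 0.558 at 4 weeks. Over pairs of all genes the mean was at most 0.0022, but positive and negative pairs cancel in it. The mean over all genes therefore does not show how far genes in general vary together. Licensing and helicase members correlated with the other members at 0.596 in KO kidneys at 7 weeks and 0.390 at 4 weeks. In WT kidneys the values were 0.409 at 7 weeks and 0.301 at 4 weeks. These are descriptions over 8 mice a group, pairs share genes and arrays, and differences between groups were not tested.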
